A study of Mus musculus with 6 samples.

Results

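Wild-type multipotent progenitors (MPPs) were compared with wild-type hematopoietic stem cells (HSCs). The comparison used 6 of the 12 RNA samples of the study: 3 wild-type HSC samples and 3 wild-type MPP samples. They were chosen by genotype and by dye, as the samples labelled with the green dye Cy3. Both populations were purified by fluorescence-activated cell sorting from C57BL6 mice that were 2 to 3 months old, and the labels describe the samples of a population as biological replicates. The labels do not give the surface markers of the sort, the sex of the mice, or whether mice were pooled. Each sample was hybridised to 1 two-colour Agilent array of probes that are 60 bases long. The other dye of every array, the red Cy5, carried a sample of the same population from Bmi1 KO mice (Bmi1 encodes a Polycomb subunit), of the same strain background and age. The knockout samples served only for the side-by-side values and the test between genotypes given at the end. Since both wild-type populations were measured in the same dye, neither a dye difference nor the knockout enters the comparison.

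HSCs sustain blood formation for life and are mostly out of the cell cycle. They give rise to MPPs, which keep the capacity to form all blood lineages but have little capacity for self-renewal, and which divide more often. MPPs gain the receptor tyrosine kinase Flt3 as they arise, and part of them begin to transcribe lymphoid genes, including the recombinase genes and antigen receptor genes that are still in germline order, beside low levels of myeloid genes; this is called lineage priming.

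Levels are log2 Cy3 intensities after background correction and quantile normalization between the 6 arrays. Differences are the mean of the MPP samples minus the mean of the HSC samples on that log2 scale, so 1 unit is a doubling, and each carries a standard error (SE) and a Benjamini-Hochberg adjusted p from limma over all features tested. Median green signals before background correction ran from 124 to 206 across the arrays, no probe was saturated, and 72.2% to 82.3% of probes were well above background by the scanner software's mark. Pairs of HSC arrays correlated at 0.854 to 0.884 across features and pairs of MPP arrays at 0.914 to 0.933, while HSC 1 correlated with MPP 1 at 0.919, above its 0.880 and 0.884 with the other HSC arrays. Some genes followed the array number in both populations. Xist, expressed from the inactive X chromosome, measured 13.66, 6.73 and 11.52 in the HSC samples and 13.14, 5.88 and 12.08 in the MPP samples, and S100a8, a neutrophil granule protein, measured 5.81, 5.87 and 13.01 in the HSC samples and 6.48, 6.97 and 12.43 in the MPP samples. All arrays lay on 1 slide in 1 scan. Its first row held the 3 HSC arrays and MPP 1, and its second row held MPP 2 and MPP 3.

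Marker genes were compared between the sorted populations. They were chosen with earlier results of these data known, so they are no independent check of identity. Of the 7 MPP markers listed, 6 were measured, all 6 had positive differences and Flt3, Rag2 and Dntt passed the test; the log2 of their summed intensity ran from 12.85 to 13.49 in HSC samples and from 15.09 to 15.27 in MPP samples. All 9 HSC markers used here were measured and had negative differences, except that Hlf was positive under median scaling, and none passed the test; their summed level was 14.64 to 15.24 in HSC samples and 13.87 to 13.89 in MPP samples. Both sums separated the populations on every array, but single markers such as Procr, Mecom and Rag1 had overlapping groups. The markers that both populations carry, Kit, Ly6a and Ptprc, had overlapping sums of 13.61 to 13.87 in HSCs and 13.76 to 14.03 in MPPs. Bulk RNA cannot tell fewer cells of a type from less RNA per cell, here and in all that follows.

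Of 27301 features tested, 126 (0.462%) were higher in MPPs and 24 (0.0879%) were lower at an adjusted p below 0.05. Every one of these 150 had non-overlapping groups, with all 3 MPP samples on one side of all 3 HSC samples. Such separation was more common than the calls: every MPP array lay above every HSC array for 2334 features (8.55%) and below it for 3990 (14.6%). At an unadjusted p below 0.05, 1946 features were higher and 2373 lower. The median difference of all features was -0.11, with the 1st percentile at -2.02 and the 99th at 2.78. A positive difference was found for 43.3% of features. The calls depended on single arrays. Without HSC 1, 16 features were higher and 2 lower. Without HSC 2, 70 were higher and 19 lower. Without HSC 3, 55 were higher and 10 lower. Without MPP 1, 11 were higher and none lower. Without MPP 2, 127 were higher and 5 lower, and without MPP 3, no feature passed in either direction, with 1307 features higher and 966 lower at an unadjusted p below 0.05. With the slide row as a block, and within the first row alone, limma called 0 features in either direction, and 741 higher and 313 lower features had an unadjusted p below 0.05 within that row. Within the first row MPP 1 is the only MPP sample. With the replicate number as a block, which pairs HSC and MPP samples of the same number, limma called 0 features in either direction.

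**Figure D1:**
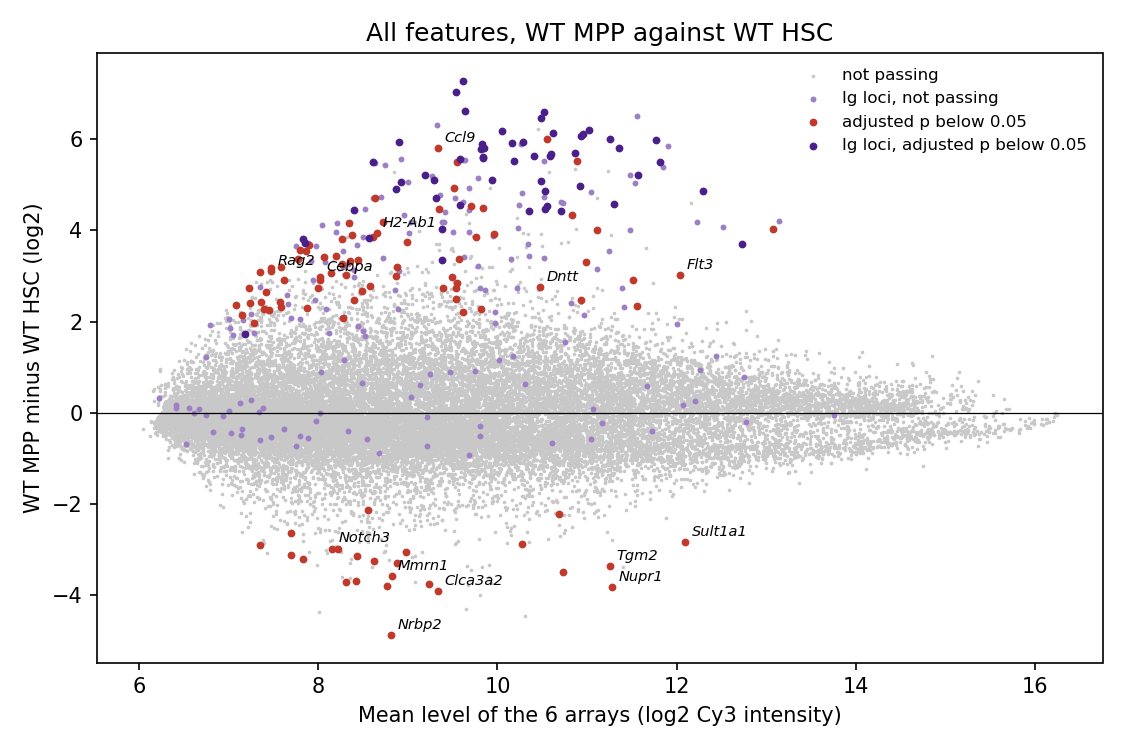
Each point is one of the 27301 features; the horizontal axis is its mean level over the 6 arrays (log2 Cy3 intensity) and the vertical axis the MPP minus HSC difference (log2). The 126 higher and 24 lower features are coloured, with features of the immunoglobulin loci in purple, and the higher side reaches further from 0 than the lower side.

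Lymphoid genes included the marker genes that passed. Of 30 measured lymphoid priming genes, 28 had a positive difference, against 43.3% of all features. By the test 3 were higher and none was lower. In 14 every MPP array lay above every HSC array, against 8.55% of all features. The median of the list was 0.82, against -0.11 for all features. Flt3, the receptor that defines these progenitors, measured 10.13, 10.50 and 10.93 on HSC arrays 1 to 3 and 13.50, 13.71 and 13.44 on MPP arrays 1 to 3. The groups lay far apart and the difference was 3.03 (SE 0.29, adjusted p = 0.0212), or 8.16-fold. Of the other Flt3 probes, one differed by 4.34 and one by 0.44. Rag2, which with Rag1 cuts antigen receptor genes during their rearrangement, measured 5.98, 5.75 and 6.04 in the HSC samples and 9.17, 8.69 and 9.22 in the MPP samples. Its probe was well above background in none of the HSC arrays and in all MPP arrays. It thus entered the test through the MPP arrays, and the level was at least 7.57-fold higher in MPPs. The measured means were 5.92 ± 0.16 and 9.03 ± 0.30 (SD, n = 3 each), with an adjusted p of 0.014. The array holds 2 Rag2 probes, and the other did not meet the rule for keeping probes. Rag1 measured 6.64, 6.83 and 6.36 in the HSC samples and 7.04, 6.79 and 7.21 in the MPP samples, with overlapping groups (difference 0.40, SE 0.26, adjusted p = 0.475), and its other probe differed by 1.27. Dntt, the polymerase that adds nucleotides at receptor gene joins, measured 8.69, 9.08 and 9.52 in the HSC samples and 11.85, 12.23 and 11.48 in the MPP samples, a difference of 2.76 (SE 0.34, adjusted p = 0.033). The probes of Flt3 and Rag2 are printed as deposited, 5′ to 3′, since these were among the marker calls of the comparison; the Flt3 probe lies at chr5:148178496-148178555 on the minus strand and the Rag2 probe at chr2:101470723-101470782 on the plus strand of mm9.
Flt3: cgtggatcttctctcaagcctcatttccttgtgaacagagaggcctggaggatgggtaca
Rag2: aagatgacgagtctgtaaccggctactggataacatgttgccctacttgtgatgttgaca

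Several further genes of the list separated the populations on every array without passing the test. Cd48, a surface protein used to sort progenitors away from HSCs, measured 9.37, 6.63 and 9.92 in the HSC samples and 13.21, 13.21 and 12.58 in the MPP samples, with HSC 2 far below the other HSC samples and a difference of 4.36 (SE 0.84, adjusted p = 0.13); its other probe differed by 0.99. Satb1, a chromatin organiser of lymphoid cells, measured 6.07, 10.69 and 7.02 in the HSC samples and 12.91, 13.53 and 13.22 in the MPP samples, where HSC 2 instead was the highest HSC sample (difference 5.29, SE 1.14, adjusted p = 0.163). Notch1, the receptor that directs T-cell fate, measured 10.36, 10.43 and 11.07 in the HSC samples and 12.14, 12.81 and 12.42 in the MPP samples (difference 1.84, SE 0.32, adjusted p = 0.104). Cd52, a small surface glycoprotein of lymphocytes, measured 6.47, 6.70 and 11.41 in the HSC samples and 13.29, 13.48 and 13.86 in the MPP samples, and its HSC 3 value stood apart from the other HSC samples (difference 5.35, SE 1.29, adjusted p = 0.201). Cd37, Cd27 and Myb, a tetraspanin, a costimulatory receptor and a transcription factor of progenitors, had differences of 1.53, 1.27 and 1.23, with adjusted p of 0.191, 0.208 and 0.217; the other Cd37 probe differed by 0.066.

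**Figure D2:**
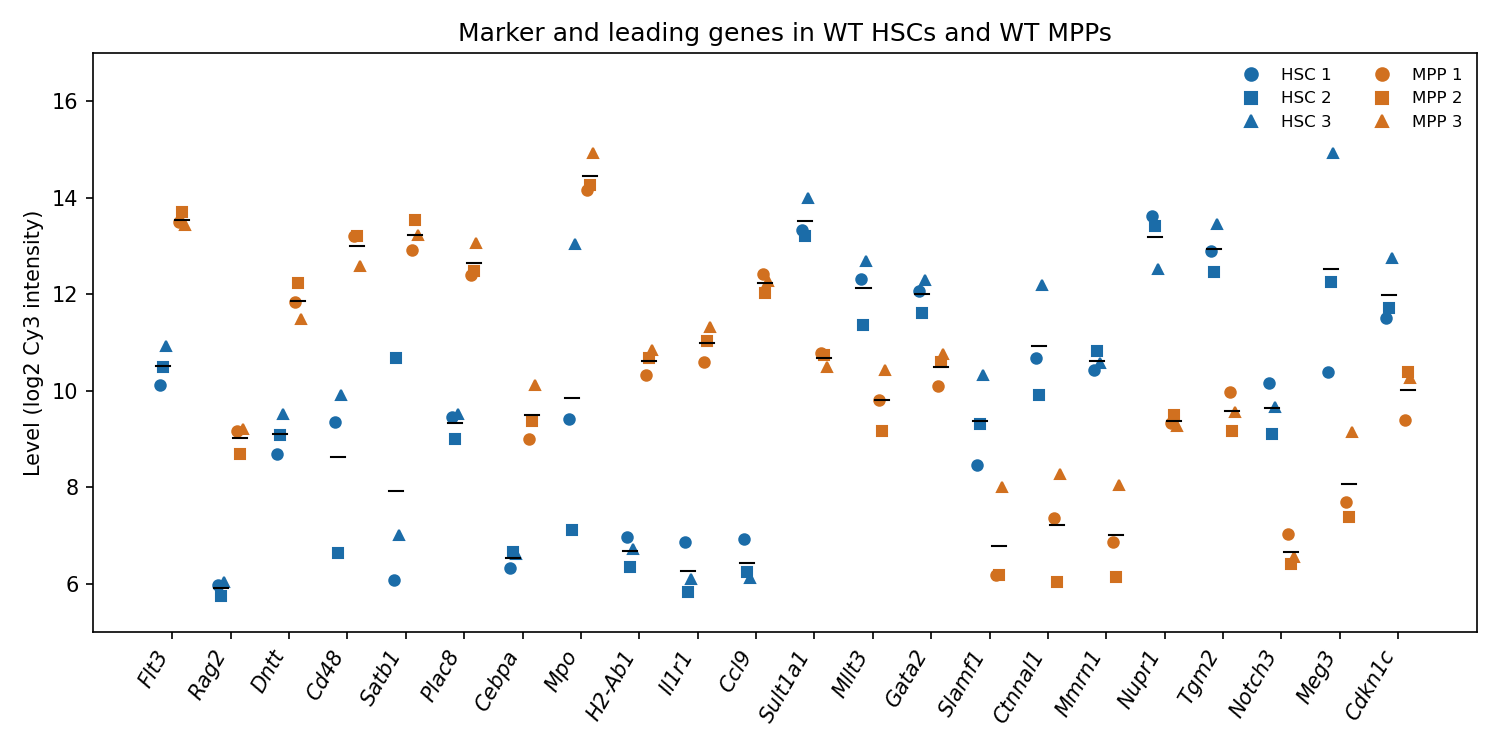
Levels (log2 Cy3 intensity, vertical axis) of marker and leading genes, with 1 point per array (circles, squares and triangles for arrays 1, 2 and 3; blue HSC, orange MPP) and a bar at each mean of 3 arrays. Flt3 sits between 10.13 and 10.93 in HSC samples and between 13.44 and 13.71 in MPP samples, while Cd48 and Satb1 show 1 HSC array far from the others.

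Antigen receptor loci held 56 of the 126 higher features, 18.0% of the 311 features tested in these loci. These loci were singled out after their values were seen. Over all features, 0.462% were higher by the test, 8.55% had every MPP array above every HSC array and 43.3% of differences were positive. Features of the immunoglobulin heavy chain locus (chr12:114496985-117238485, mm9) had a median difference of 3.97, with 100 of 120 positive, 79 with every MPP array above every HSC array and 40 higher by the test. Their median level was 7.28, 7.85 and 7.46 in the HSC samples and 12.41, 10.48 and 12.12 in the MPP samples, so MPP 2 was the lowest MPP sample. Features of the kappa light chain locus (chr6:67505984-70676751) had a median difference of 3.18 and 12 of 90 were higher; their median level was 6.82, 7.12 and 7.18 in HSCs and 11.61, 8.87 and 12.03 in MPPs, again lowest in MPP 2. The lambda locus (chr16:19065462-19241363) had a median of 4.01 over 5 features, 2 of them higher. No feature of the 3 loci was lower. The 54 immunoglobulin calls became 91 without MPP 2 and 0 without MPP 3; they were 6 without HSC 1, 41 without HSC 2, 23 without HSC 3 and 8 without MPP 1. They were 0 with the replicate number or the slide row as a block, within the first row, and without both arrays numbered 3, and 21 with no filter on dim probes.

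Some of the variable gene probes with large differences are alike in sequence. From the deposited array files 6 are printed, 5′ to 3′. The heavy chain pair was chosen for its longest shared stretch, so it does not stand for the other probes. Capitals mark the longest stretch that the members of a pair share, 39 bases in the heavy chain pair and 13 in the kappa pair. The last 2 probes were printed without a partner and are in lower case throughout. The V1-63 probe nevertheless shares a stretch with the heavy chain pair that is not marked. The heavy chain pair lies at chr12:116002746-116002805 and chr12:115895649-115895708, both on the minus strand, and the kappa pair at chr6:67892237-67892296 on the minus strand and chr6:68000253-68000312 on the plus strand. Heavy variable V1-63 lies at chr12:116733930-116733989 and kappa variable 5-39 at chr6:69850418-69850477, both on the minus strand.
Heavy variable V1-23: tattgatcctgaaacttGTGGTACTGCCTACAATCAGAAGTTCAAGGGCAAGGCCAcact
Predicted gene 16858: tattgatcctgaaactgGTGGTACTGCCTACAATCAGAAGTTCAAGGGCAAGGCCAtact
Kappa variable 9-124: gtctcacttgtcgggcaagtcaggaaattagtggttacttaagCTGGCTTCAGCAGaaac
Kappa variable 9-120: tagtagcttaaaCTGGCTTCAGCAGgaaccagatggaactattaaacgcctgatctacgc
Heavy variable V1-63: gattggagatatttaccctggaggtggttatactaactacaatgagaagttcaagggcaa
Kappa variable 5-39: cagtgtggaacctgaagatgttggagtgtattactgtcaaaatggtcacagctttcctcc

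Of the 54 immunoglobulin probes that passed, 27 shared a stretch of 20 bases or more with another of them, the median longest shared stretch being 19.5 bases (range 7 to 39). Such probes may bind each other's transcripts, which was not tested, so the count of features need not be a count of separate genes. The kappa variable 5-39 probe measured 5.95, 5.92 and 6.07 in the HSC samples and 13.88, 12.63 and 13.27 in the MPP samples. It was well above background in no HSC array, which gives a level at least 143-fold higher in MPPs (adjusted p = 0.00469, measured means 5.98 and 13.26). Kappa variable 9-124 measured 5.92, 5.94 and 5.92 in the HSC samples and 11.50, 11.79 and 12.32 in the MPP samples, at least 54.3-fold higher (adjusted p = 0.00469). Kappa variable 9-120, which shares its capitals with 9-124, measured 6.07, 6.54 and 6.37 in the HSC samples and 12.11, 13.09 and 13.63 in the MPP samples, a difference of 6.62 (SE 0.43, adjusted p = 0.00904). Heavy variable V1-63 measured 6.77, 7.15 and 6.83 in the HSC samples and 12.44, 12.53 and 13.17 in the MPP samples, a difference of 5.80 (SE 0.30, adjusted p = 0.00469), and V1-23 measured 7.11, 8.35 and 7.19 in the HSC samples and 14.50, 12.35 and 14.19 in the MPP samples, a difference of 6.13 (SE 0.65, adjusted p = 0.0239).

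Constant regions were measured as well. The heavy constant mu region, the first heavy chain isotype to be transcribed, measured 8.49, 7.81 and 8.46 in the HSC samples and 14.86, 13.11 and 14.82 in the MPP samples (difference 6.01, SE 0.53, adjusted p = 0.0144). Lambda constant 2 measured 9.92, 8.73 and 8.38 in the HSC samples and 13.54, 13.98 and 13.24 in the MPP samples (difference 4.58, SE 0.46, adjusted p = 0.0226), and lambda constant 3 differed by 4.47 (SE 0.45, adjusted p = 0.0226). The kappa constant region measured 6.38, 6.08 and 12.44 in the HSC samples and 15.18, 13.04 and 16.20 in the MPP samples; HSC 3 lay close below MPP 2, and the difference of 6.51 (SE 1.80, adjusted p = 0.235) did not pass. The heavy gamma polypeptide probe measured 7.46, 7.30 and 8.52 in the HSC samples and 14.32, 15.30 and 10.20 in the MPP samples, here with MPP 3 the lowest MPP sample (difference 5.51, SE 1.28, adjusted p = 0.19). The heavy constant gamma 1 region measured 8.14, 8.67 and 12.87 in the HSC samples and 13.11, 13.22 and 9.75 in the MPP samples, so the groups overlapped through HSC 3 and MPP 3 (difference 2.14, SE 1.5, adjusted p = 0.496), and the groups of gamma 2C overlapped too (difference 0.11, SE 0.32, adjusted p = 0.885). Gamma isotypes are made after class switching in mature B cells; the part of such cells was not tested. Among the T-cell receptor loci, the beta constant regions 1 and 2 were the only features to pass, of 70 tested in the alpha and delta locus, 21 in the beta locus and 5 in the gamma locus. Beta constant region 1 measured 9.09, 9.23 and 9.0 in the HSC samples and 12.36, 13.38 and 13.58 in the MPP samples (difference 4.0, SE 0.38, adjusted p = 0.0177), and constant region 2 measured 8.67, 7.99 and 9.31 in the HSC samples and 12.31, 13.08 and 13.61 in the MPP samples (difference 4.34, SE 0.48, adjusted p = 0.0249). These constant regions are near copies of each other, and their signals may be shared. The median differences of the alpha and delta, beta and gamma loci were -0.13, -0.19 and 0.07; the gamma median had the opposite sign under other scalings, from -0.29 to 0.16.

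**Figure D3:**
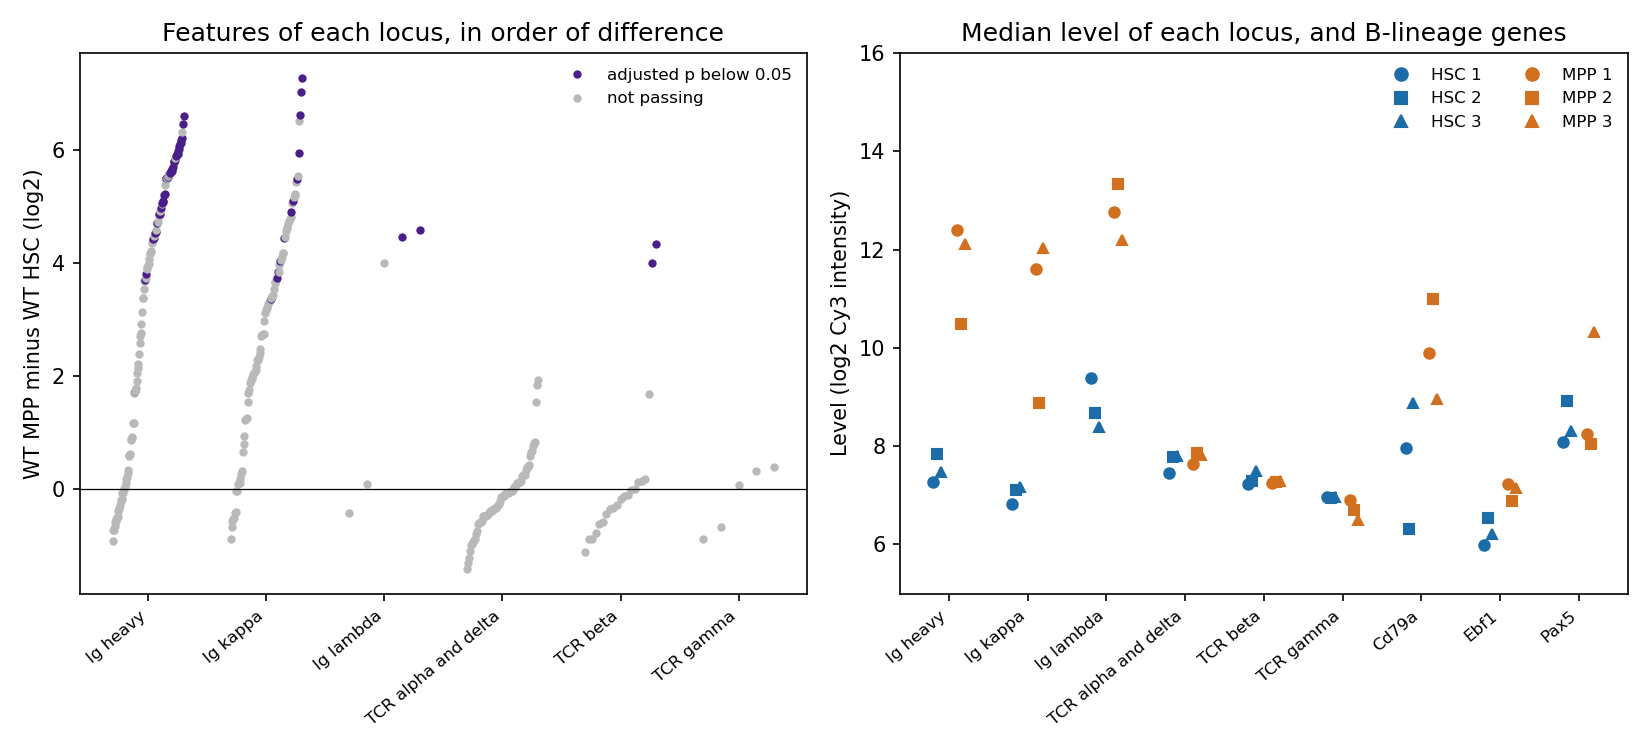
Left, the MPP minus HSC difference (log2) of every tested feature in 6 antigen receptor loci, ordered by difference within a locus, with passing features in purple. Right, the median level (log2 Cy3 intensity) of each locus on each array and the levels of Cd79a, Ebf1 and Pax5; heavy chain medians run from 7.28 to 7.85 on HSC arrays and from 10.48 to 12.41 on MPP arrays.

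The genes of committed B cells were measured beside these loci. Of 15 measured B-lineage genes none passed in either direction and 10 differences were positive, against 43.3% of all features. In 3 every MPP array lay above every HSC array, against 8.55% of all features. The median was 0.26 (0.036 to 0.51 over the alternatives). Cd79a, a signalling chain of the B-cell receptor, measured 7.95, 6.31 and 8.89 in the HSC samples and 9.90, 10.99 and 8.95 in the MPP samples; the lowest MPP sample, MPP 3, was barely above the highest HSC sample, HSC 3, and the difference was 2.23 (SE 0.78, adjusted p = 0.283), against 1.28 on its other probe. Ebf1, a transcription factor that specifies B cells, measured 5.99, 6.55 and 6.21 in the HSC samples and 7.23, 6.88 and 7.15 in the MPP samples (difference 0.84, SE 0.27, adjusted p = 0.265). Pax5, which maintains B-cell identity, measured 8.09, 8.91 and 8.30 in the HSC samples and 8.25, 8.04 and 10.32 in the MPP samples, where MPP 3 alone was high (difference 0.44, SE 0.64, adjusted p = 0.754); its other probe differed by -0.19. Cd22, an inhibitory receptor of B cells, differed by -0.94 (SE 0.38, adjusted p = 0.308). The summed level of Cd79a, Ebf1 and Pax5 was 9.19 to 9.75 in HSC samples and 10.46 to 11.24 in MPP samples, so the groups did not overlap; the part of B-lineage cells in the immunoglobulin signals was not tested. Of 19 measured T and natural killer (NK) cell genes none passed, and the summed level of Cd3e and Nkg7, the 2 measured of 3 listed markers, was 10.52 to 12.08 in HSC samples and 12.60 to 13.00 in MPP samples. The NK receptor Klrd1 was above background in no HSC array and all MPP arrays, at least 3.67-fold higher (adjusted p = 0.233), the granule protein Nkg7 differed by 1.66 (SE 0.49, adjusted p = 0.25) and by 4.62 on its other probe, and the T-cell receptor component Cd3e by -0.48 (SE 0.25, adjusted p = 0.385).

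Single genes of antigen presentation and of early myeloid cells also passed the test. H2-Ab1, the beta chain of the class II molecule I-A, measured 6.98, 6.35 and 6.72 in the HSC samples and 10.34, 10.69 and 10.84 in the MPP samples, a difference of 3.94 (SE 0.29, adjusted p = 0.0111). Its partner H2-Aa differed by 1.58 (SE 0.50, adjusted p = 0.259), Cd74, the invariant chain, by 0.60 (SE 1.0, adjusted p = 0.783), and Ciita, the class II master regulator, by -0.77 (SE 0.39, adjusted p = 0.379). Of the 12 measured class II and dendritic cell genes, 2 were higher, H2-Ab1 and Flt3, with a list median of 0.68 (0.013 to 0.91 over the alternatives). Of 22 measured myeloid progenitor genes 3 were higher and none was lower, with a median of 0.79. In 8 every MPP array lay above every HSC array, against 8.55% of all features. Cebpa, the transcription factor that starts granulocyte and monocyte development, measured 6.33, 6.66 and 6.61 in the HSC samples and 9.01, 9.38 and 10.12 in the MPP samples (difference 2.97, SE 0.35, adjusted p = 0.0308). Plac8, a small cysteine-rich protein of early progenitors, measured 9.47, 9.01 and 9.52 in the HSC samples and 12.40, 12.48 and 13.07 in the MPP samples (difference 3.32, SE 0.31, adjusted p = 0.0166). Cst7, the cysteine protease inhibitor cystatin F, measured 6.47, 6.72 and 6.86 in the HSC samples and 9.85, 11.45 and 10.31 in the MPP samples (difference 3.85, SE 0.44, adjusted p = 0.0292).

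Primary granule genes were high in all MPP samples and in 1 HSC sample. Mpo, myeloperoxidase, measured 9.43, 7.11 and 13.04 in the HSC samples and 14.16, 14.27 and 14.93 in the MPP samples; HSC 3 lay nearer to the MPP samples than to HSC 2, and the difference of 4.6 (SE 1.39, adjusted p = 0.251) did not pass. Elane, neutrophil elastase, measured 7.12, 7.27 and 11.11 in the HSC samples and 11.97, 11.34 and 13.10 in the MPP samples (difference 3.64, SE 1.12, adjusted p = 0.257), and Ctsg, cathepsin G, measured 8.26, 9.02 and 10.78 in the HSC samples and 12.16, 11.08 and 12.33 in the MPP samples (difference 2.50, SE 0.70, adjusted p = 0.238). Genes of late neutrophils had no common direction: of 12 measured none passed, 6 differences were positive and the median was -0.021, a sign that turned under other scalings (-0.26 to 0.11). The summed level of S100a8 and Camp, the 2 measured of 4 listed markers, overlapped, at 7.48 to 13.05 in HSC samples and 8.03 to 12.48 in MPP samples. In the eosinophil and basophil genes Prg2, Mcpt8 and Epx, HSC 3 was again the highest HSC sample. Prg2, eosinophil major basic protein, measured 6.18, 6.89 and 12.70 in the HSC samples and 12.92, 13.73 and 15.01 in the MPP samples (difference 5.30, SE 1.71, adjusted p = 0.265). Mcpt8, a basophil protease, measured 6.83, 7.04 and 10.39 in the HSC samples and 11.78, 12.39 and 12.90 in the MPP samples (difference 4.27, SE 0.97, adjusted p = 0.181), and Epx, eosinophil peroxidase, differed by 3.93 (SE 0.90, adjusted p = 0.184). None of the 11 measured genes of that list passed, and 5 had every MPP array above every HSC array, against 8.55% of all features. The list median of 1.21 was the highest of the 30 lists plotted. The summed level of Mcpt8, Prss34 and Epx was 8.71 to 11.38 in HSC samples and 12.85 to 14.59 in MPP samples; the part of such cells in the myeloid values was not tested.

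Ccl9, a chemokine, had the largest higher difference of the named genes that passed and measured 6.92, 6.26 and 6.11 in the HSC samples and 12.42, 12.02 and 12.28 in the MPP samples (difference 5.81, SE 0.31, adjusted p = 0.00469); its probe was well above background in 1 of 3 HSC arrays. Il1r1, the type 1 receptor of interleukin 1, measured 6.86, 5.84 and 6.11 in the HSC samples and 10.61, 11.03 and 11.33 in the MPP samples (difference 4.72, SE 0.37, adjusted p = 0.0124), with 1 of 3 HSC arrays above background. Ubash3a, a suppressor of T-cell receptor signalling, measured 8.08, 5.97 and 6.35 in the HSC samples and 12.46, 12.04 and 12.40 in the MPP samples (difference 5.50, SE 0.57, adjusted p = 0.0235). In all 3 genes every MPP sample lay above every HSC sample, as the choice of the leading genes required. F13a1, the A subunit of coagulation factor XIII, measured 6.0, 5.93 and 6.86 in the HSC samples and 10.87, 9.63 and 10.80 in the MPP samples (difference 4.17, SE 0.45, adjusted p = 0.024). Cd53, a leukocyte tetraspanin, measured 7.20, 7.93 and 8.88 in the HSC samples and 11.55, 12.18 and 12.03 in the MPP samples (difference 3.92, SE 0.47, adjusted p = 0.0317). Tespa1, a protein of T-cell receptor signalling in thymocytes, measured 6.82, 7.0 and 7.53 in the HSC samples and 11.03, 10.98 and 10.59 in the MPP samples (difference 3.75, SE 0.30, adjusted p = 0.0124). Tifab was above background in no HSC array and all MPP arrays, at least 11.1-fold higher (adjusted p = 0.0246, measured means 6.01 ± 0.061 and 9.58 ± 0.70, SD, n = 3 each). The remaining leaders had differences of 4.93 for Tmem150b, 4.55 for Bex6, 3.81 for Polg2 (the accessory subunit of mitochondrial DNA polymerase), 3.55 for Fbxo48, 3.43 for Padi2 (a peptidylarginine deiminase), 3.41 for Drc7, 3.39 for Serpinb1c, 3.37 for the kinase Camk1d, 3.34 for Pdxp (pyridoxal phosphatase) and 3.32 for Rhbdl3. A second probe differed by 2.10 for Polg2, 4.56 for Bex6 and 3.39 for Padi2, but by 0.31 for Pdxp. Outside the receptor loci, 70 features were higher, 54 of them with a gene name.

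Genes known from HSCs had mostly negative differences, few of which passed. The list of HSC surface markers and related HSC genes had 29 measured members. Of these, 24 had a negative difference and 1 was lower by the test, for a median of -0.57. In 10 every MPP array lay below every HSC array. Of all features, 43.3% had a positive difference and 14.6% had every MPP array below every HSC array. The gene that passed, Sult1a1, encodes a cytosolic sulfotransferase rather than a surface protein and measured 13.33, 13.22 and 13.99 in the HSC samples and 10.79, 10.73 and 10.50 in the MPP samples, a difference of -2.84 (SE 0.30, adjusted p = 0.0239); its other probe differed by -2.94. Slamf1, the CD150 antigen used to sort HSCs, measured 8.47, 9.31 and 10.34 in the HSC samples and 6.19, 6.18 and 8.0 in the MPP samples (difference -2.58, SE 0.68, adjusted p = 0.222). Ctnnal1, a catenin-like protein whose locus serves as an HSC reporter, measured 10.69, 9.92 and 12.20 in the HSC samples and 7.37, 6.04 and 8.29 in the MPP samples, and MPP 2 was near the floor of the scale (difference -3.70, SE 0.77, adjusted p = 0.151); its other probe differed by -1.04. In Sult1a1, Slamf1 and Ctnnal1 every HSC sample lay above every MPP sample. Esam, Tek and Emcn, surface proteins that HSCs share with endothelium, had differences of -2.25, -1.63 and -1.27 with adjusted p of 0.201, 0.251 and 0.153.

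Of 34 measured HSC transcription factors none passed, 25 had a negative difference and the median was -0.52. In 11 every MPP array lay below every HSC array, and in none did every MPP array lie above. The shares over all features were 14.6% below and 8.55% above, with 43.3% of differences positive. Mllt3, which maintains HSC self-renewal programs, measured 12.32, 11.36 and 12.69 in the HSC samples and 9.81, 9.18 and 10.44 in the MPP samples (difference -2.32, SE 0.48, adjusted p = 0.151). Gata2, required for HSC formation and survival, measured 12.08, 11.61 and 12.30 in the HSC samples and 10.11, 10.60 and 10.77 in the MPP samples (difference -1.50, SE 0.32, adjusted p = 0.154). Prdm16, an HSC maintenance factor, measured 8.67, 9.56 and 8.89 in the HSC samples and 6.61, 5.82 and 7.37 in the MPP samples (difference -2.44, SE 0.47, adjusted p = 0.124). The groups did not overlap in any of these 3 genes. Hlf, another HSC regulator, differed by -0.33 (SE 0.24, adjusted p = 0.514), and by 0.18 under median scaling, so its direction was not settled. Among 24 measured Hox genes the median was -0.35 and none passed; Hoxc4 had the smallest p of these and measured 8.91, 9.28 and 10.26 in the HSC samples and 6.81, 6.25 and 7.62 in the MPP samples (difference -2.59, SE 0.50, adjusted p = 0.125).

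Most genes of platelets and their precursors had negative differences, with 1 call. Mmrn1, the platelet protein multimerin, was that call, among 19 measured genes, and measured 10.44, 10.83 and 10.58 in the HSC samples and 6.88, 6.15 and 8.05 in the MPP samples (difference -3.59, SE 0.50, adjusted p = 0.0475). Vwf, von Willebrand factor, measured 10.80, 10.37 and 11.26 in the HSC samples and 8.70, 9.55 and 9.62 in the MPP samples (difference -1.52, SE 0.38, adjusted p = 0.209), and Pf4, platelet factor 4, measured 10.79, 10.25 and 11.58 in the HSC samples and 7.52, 9.50 and 9.53 in the MPP samples (difference -2.03, SE 0.64, adjusted p = 0.262). Of the list, 16 differences were negative and 5 genes had every MPP array below every HSC array; Plek, a protein kinase C substrate, differed in the other direction, by 1.52 (SE 0.39, adjusted p = 0.216). The list median was -0.75. Over all features, 14.6% had every MPP array below every HSC array and 43.3% of differences were positive. The summed level of Pf4 and Gp9, the 2 measured defining markers of 3, was 10.54 to 11.72 in HSC samples and 8.06 to 9.96 in MPP samples; the part of megakaryocyte precursors in the HSC values was not tested. Erythroid genes showed no such order: none of 19 passed, and Hba-a1, alpha globin, measured 10.33, 8.98 and 14.58 in the HSC samples and 11.26, 8.28 and 10.56 in the MPP samples, with HSC 3 the highest sample (difference -1.26, SE 1.52, adjusted p = 0.695).

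Nrbp2, a pseudokinase, had the largest lower difference of the named genes and measured 10.77, 11.69 and 11.29 in the HSC samples and 6.32, 6.56 and 6.25 in the MPP samples (difference -4.87, SE 0.31, adjusted p = 0.00904). Nupr1, a stress-induced transcriptional regulator, measured 13.63, 13.42 and 12.53 in the HSC samples and 9.33, 9.51 and 9.27 in the MPP samples (difference -3.82, SE 0.35, adjusted p = 0.0166). Tgm2, transglutaminase 2, measured 12.91, 12.47 and 13.45 in the HSC samples and 9.98, 9.18 and 9.56 in the MPP samples (difference -3.37, SE 0.36, adjusted p = 0.024), and its other probe differed by -5.05. Each of these genes separated the populations on every array, which the choice of the leading genes required. Cish, a cytokine-induced inhibitor of STAT5 signalling, measured 9.50, 8.78 and 9.46 in the HSC samples and 6.10, 6.39 and 5.92 in the MPP samples (difference -3.11, SE 0.31, adjusted p = 0.0223). Notch3 measured 10.15, 9.10 and 9.67 in the HSC samples and 7.03, 6.41 and 6.55 in the MPP samples (difference -2.98, SE 0.36, adjusted p = 0.0317). The difference of its relative Notch1 had the opposite sign and did not pass. Igf2bp2, which binds the Igf2 messenger RNA, measured 10.33, 10.84 and 12.16 in the HSC samples and 7.28, 7.44 and 7.37 in the MPP samples (difference -3.75, SE 0.49, adjusted p = 0.0397). Sytl5, a synaptotagmin-like protein, was above background in all HSC arrays and in no MPP array, at least 6.32-fold lower in MPPs (adjusted p = 0.0292, measured means 8.80 ± 0.55 and 5.90 ± 0.063, SD, n = 3 each). The remaining named calls had differences of -3.91 for Clca3a2, -3.21 for the amino acid transporter Slc6a15, -3.15 for the cyclic GMP phosphodiesterase Pde9a, -3.05 for the olfactory receptor gene Olfr704 and -2.14 for the annexin Anxa9. In all, 14 of the 24 lower features were named genes.

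The other 10 lower features had no gene name. The array names 6 of them by genomic position, and the nearest named probes of these were looked up after the values were seen, with no test of how often other probes have such neighbours. Distances are the gaps between probes in mm9. A probe at chr3:30107996-30108055 lay 27436 bases from the nearest Mecom probe and differed by -3.70 (SE 0.45, adjusted p = 0.0317). Another at chr3:30077539-30077598 lay 57893 bases from the nearest Mecom probe and differed by -2.65 (SE 0.35, adjusted p = 0.0397). Mecom, a transcription factor needed for HSC maintenance, differed by -0.91 (SE 0.42, adjusted p = 0.343) on its brightest probe. That probe lies at chr3:30445665-30445724 and is not the nearest one. The other Mecom probes differed by -1.31 and -1.16. Probes on both strands at chr2:157371721-157371780 and chr2:157371705-157371764, near Blcap and the imprinted gene Nnat, differed by -2.21 (SE 0.27, adjusted p = 0.0317) and -2.88 (SE 0.37, adjusted p = 0.0397). A probe at chr17:13022905-13022964, near probes for Mas1 and the imprinted antisense RNA Airn, differed by -2.98 (SE 0.41, adjusted p = 0.0462). A probe at chr5:77271441-77271500, near Cracd and Aasdh, differed by -3.29 (SE 0.46, adjusted p = 0.0489). The neighbours named here did not pass the test on their brightest probes. Which transcripts these probes read was not tested.

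Most imprinted genes of the growth network had negative differences, without a single call. Of 18 measured members 15 had a negative difference and 9 had every MPP array below every HSC array, with a median of -0.81. Over all features, 43.3% of differences were positive and 14.6% had every MPP array below every HSC array. Meg3, a maternally expressed long noncoding RNA, measured 10.40, 12.25 and 14.93 in the HSC samples and 7.70, 7.38 and 9.15 in the MPP samples (difference -4.45, SE 1.14, adjusted p = 0.217); the HSC samples spread widely but none reached the MPP range. Grb10, an adaptor that restrains growth factor receptors, measured 12.02, 11.03 and 11.25 in the HSC samples and 8.81, 8.5 and 9.51 in the MPP samples (difference -2.49, SE 0.40, adjusted p = 0.0767). Cdkn1c, the cyclin-dependent kinase inhibitor p57, measured 11.51, 11.72 and 12.75 in the HSC samples and 9.39, 10.38 and 10.27 in the MPP samples (difference -1.98, SE 0.45, adjusted p = 0.181). H19 and Igf2, neighbouring imprinted genes, differed by -2.24 (SE 0.61, adjusted p = 0.231) and -2.52 (SE 0.76, adjusted p = 0.252). The absence of a call holds for the brightest probe of each gene. The other 5 H19 probes differed by -5.65 to -0.38, and the one at -5.65 had an unadjusted p of 7.57e-05, while the mean over H19 probes gave -3.01 (adjusted p = 0.128). The other Meg3 probes differed by -5.11 and -3.44.

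Most genes of cell division had positive differences, and none passed. Of 43 measured S-phase genes 37 had a positive difference and 17 had every MPP array above every HSC array; the median was 1.20. Of 37 G2 and M phase genes 33 were positive, 17 had every MPP array above every HSC array and none passed, with a median of 0.92. No member of either list had every MPP array below every HSC array. Of all features, 14.6% did, 8.55% had every MPP array above every HSC array, and 43.3% had a positive difference. Cdt1, which licenses replication origins, measured 8.33, 6.36 and 6.13 in the HSC samples and 10.92, 10.88 and 11.47 in the MPP samples and had the smallest p of its list (difference 4.15, SE 0.61, adjusted p = 0.0554). Cdc6, its partner in licensing, measured 7.03, 6.12 and 6.05 in the HSC samples and 7.91, 8.72 and 9.23 in the MPP samples (difference 2.22, SE 0.45, adjusted p = 0.144), and Mcm2, a subunit of the replicative helicase, measured 9.89, 10.03 and 10.39 in the HSC samples and 11.14, 11.25 and 11.79 in the MPP samples (difference 1.28, SE 0.30, adjusted p = 0.187). Kif11, the motor of the mitotic spindle, measured 7.45, 8.32 and 8.09 in the HSC samples and 10.32, 9.68 and 10.38 in the MPP samples (difference 2.17, SE 0.35, adjusted p = 0.0767). Aurka, a mitotic kinase, measured 6.99, 6.01 and 6.19 in the HSC samples and 8.02, 8.95 and 8.79 in the MPP samples (difference 2.19, SE 0.40, adjusted p = 0.109). In these licensing and mitotic genes HSC 1 was often the highest HSC sample, as in Cdt1, Cdc6 and Aurka, but not in Kif11 or Mcm2. Regulators of entry into the cycle were mixed. Cdk6, a kinase of G1, differed by 2.60 (SE 0.56, adjusted p = 0.163), the inhibitor Cdkn1b (p27) by 1.80 (SE 0.63, adjusted p = 0.283) and the inhibitor Cdkn2d (p19) by -2.05 (SE 0.85, adjusted p = 0.316). The list of cyclin-dependent kinase inhibitors and quiescence cyclins had a median of -0.048 that turned to as much as 0.44 under other scalings.

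Lists of growth and energy metabolism had positive medians and no calls. Of all features, 43.3% had a positive difference, 8.55% lay wholly above and 14.6% wholly below. The median was 0.48 over 64 ribosome biogenesis genes (51 positive), 0.78 over 75 mitochondrial ribosomal proteins (58 positive), 0.52 over 74 respiratory chain genes (59 positive), 0.62 over 27 genes of Myc and nucleotide synthesis (22 positive) and 0.34 over 29 genes of glycolysis and hypoxia (21 positive). Every MPP array lay above every HSC array in 15, 19, 8, 9 and 5 members of these lists, in that order, and below in 2, 2, 2, 0 and 3. For the respiratory chain, 8 of 74 is near the share of all features. Rrs1, a ribosome assembly factor, measured 7.20, 6.24 and 6.20 in the HSC samples and 9.29, 8.77 and 9.43 in the MPP samples (difference 2.61, SE 0.37, adjusted p = 0.0519), and Mrps12, a protein of the small mitochondrial ribosomal subunit, measured 7.10, 6.81 and 8.45 in the HSC samples and 10.86, 10.36 and 12.29 in the MPP samples (difference 3.71, SE 0.64, adjusted p = 0.0988). Both separated the populations on every array. Umps, which makes the pyrimidine precursor UMP, differed by 2.49 (SE 0.50, adjusted p = 0.143), and Ndufs4, a subunit of respiratory complex I, by 2.14 (SE 0.52, adjusted p = 0.202). Ldha, lactate dehydrogenase A, went the other way, with a difference of -0.82 (SE 0.32, adjusted p = 0.306).

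Adhesion, signalling and chromatin lists were mixed. Over all features, 43.3% of differences were positive, 8.55% of features lay wholly above and 14.6% wholly below. In the list of niche, adhesion and homing genes none of 23 passed, with 5 genes wholly above and 5 wholly below, and the median of 0.12 changed sign with the scaling (-0.049 to 0.29). Cd44, the hyaluronan receptor, measured 12.21, 11.52 and 11.87 in the HSC samples and 13.47, 14.08 and 13.52 in the MPP samples (difference 1.82, SE 0.31, adjusted p = 0.0953), although another Cd44 probe differed by -0.27, and Icam1 differed by -1.52 (SE 0.33, adjusted p = 0.16). In the Notch, Wnt and TGF-beta list the 1 call of 31 was Notch3, and the median of -0.022 changed sign with the scaling (-0.26 to 0.12). Polycomb subunits, the family that includes Bmi1, had no call among 31, a median of 0.57 (0.18 to 0.79 over the alternatives) and 23 positive differences; Ezh1, a histone methyltransferase, differed by -1.02 (SE 0.28, adjusted p = 0.238), and its other probes by -0.36, -0.058 and 0.57. Among 13 genes of DNA methylation the median was 0.64 (0.028 to 0.93 over the alternatives); Idh1, isocitrate dehydrogenase, differed by 2.03 (SE 0.40, adjusted p = 0.132) and the maintenance methyltransferase Dnmt1 by 1.52 (SE 0.51, adjusted p = 0.273). Interferon response genes had a median of 0.16 (0.00086 to 0.54 over the alternatives) with 20 of 35 positive. Abcg2, the efflux pump behind the side population of stem cells, measured 11.62, 11.43 and 12.26 in the HSC samples and 10.73, 10.47 and 10.81 in the MPP samples (difference -1.10, SE 0.31, adjusted p = 0.239), within a list of 16 that had a median of 0.31 (0.088 to 0.66 over the alternatives). Immediate early genes, 22 measured, had a median of -0.10 whose sign changed with the scaling, and none separated the populations on every array.

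**Figure D4:**
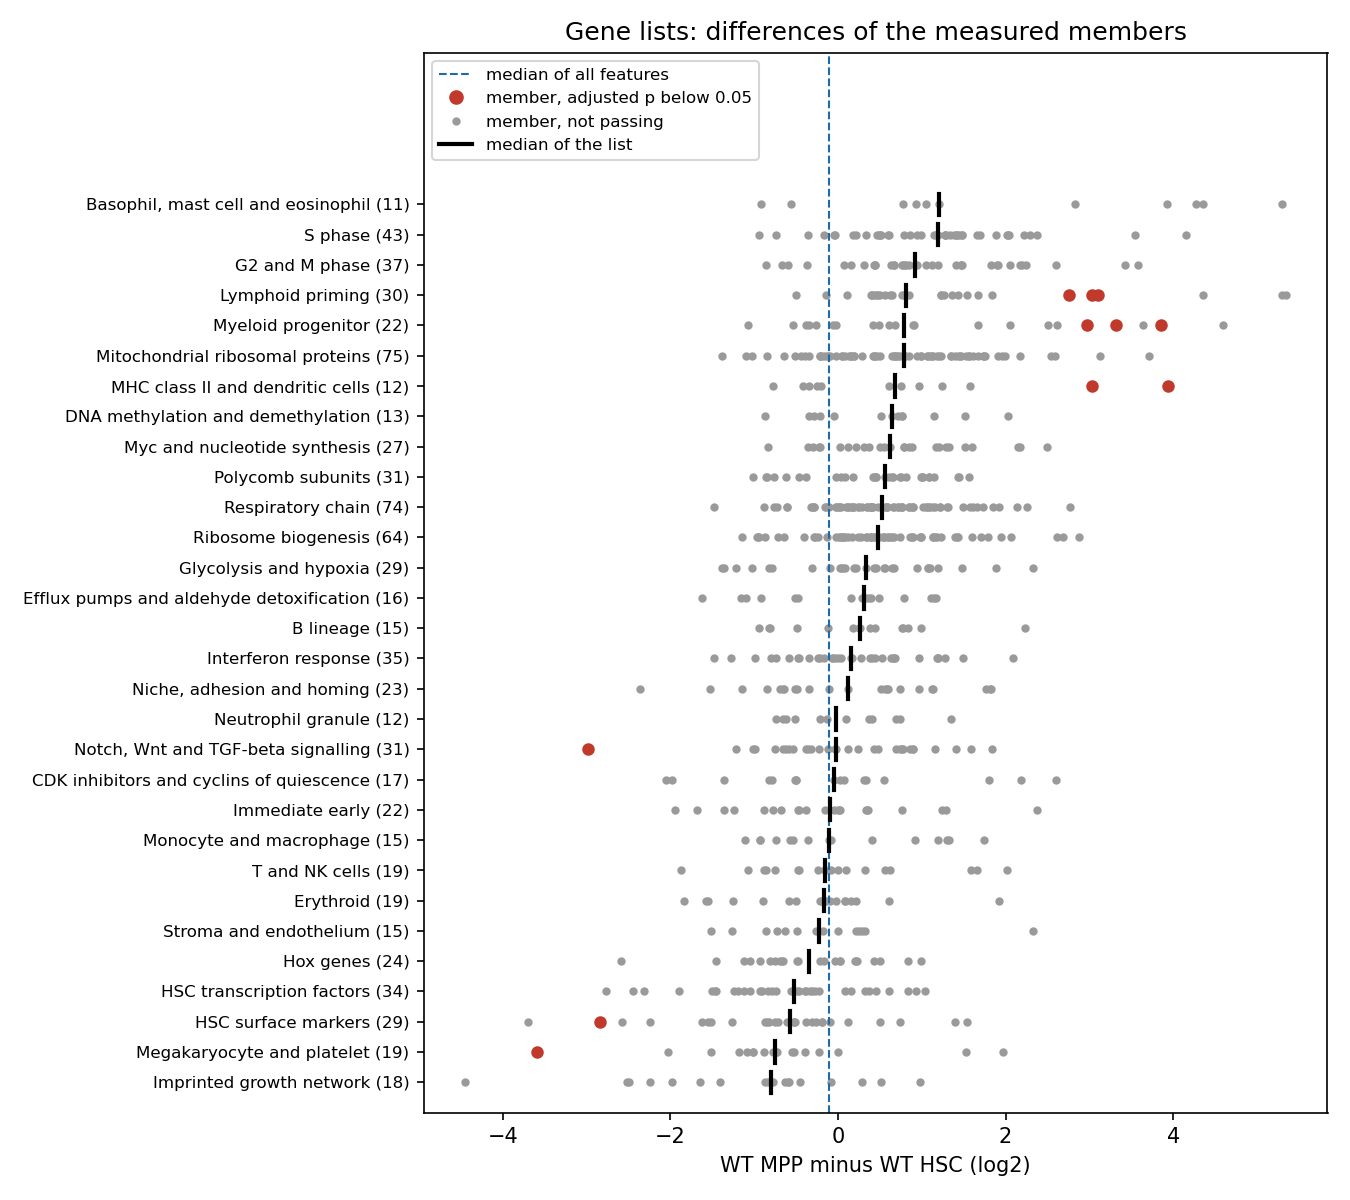
MPP minus HSC differences (log2, horizontal axis) of the measured members of 30 gene lists, with the number measured in parentheses, the list median as a black bar, passing members in red and the median of all features (-0.11) as a dashed line. Basophil, mast cell and eosinophil genes (1.21) and S-phase genes (1.20) have the highest medians, and imprinted genes (-0.81) and megakaryocyte genes (-0.75) the lowest.

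The same contrast was computed for the knockout samples in the other dye of these arrays. The 2 contrasts come from the same spots and share no RNA sample. In the knockout contrast 152 of 27295 features (0.557%) passed in either direction. Values are given side by side and their agreement was not tested. The test of whether the knockout difference departs from the wild-type difference, on the log2 ratios within arrays, called 0 features (0%) with limma, with 1105 at an unadjusted p below 0.05 and a smallest adjusted p of 0.963. Flt3 differed by 3.03 in wild-type and 2.92 in knockout cells, Dntt by 2.76 and 3.59, H2-Ab1 by 3.94 and 3.91, Cebpa by 2.97 and 3.23, and Sult1a1 by -2.84 and -3.11. The heavy, kappa and lambda loci had knockout medians of 3.67, 2.60 and 3.94.

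The value for the difference between genotypes comes from log2 ratios normalized within each array, so it need not equal the gap between the 2 contrasts. Some genes had a larger value in one genotype than in the other, none with an adjusted p below 0.05 for the difference between genotypes. Among B-lineage genes, Ebf1 differed by 0.84 in wild-type and 5.51 in knockout cells, a knockout minus wild-type value of 4.41 (SE 0.91, adjusted p = 0.963), and for Pax5, at 0.44 and 4.40, that value was 4.04 (SE 0.66, adjusted p = 0.963). Rag2 differed by 3.1 and 5.59, with 1.63 (SE 0.61, adjusted p = 0.963). Some of the wild-type leaders had small knockout values: Nrbp2 differed by -4.87 and -0.73, with 4.26 (SE 1.11, adjusted p = 0.963), Pde9a by -3.15 and -0.47, with 2.62 (SE 0.58, adjusted p = 0.963), and Polg2 by 3.81 and 1.01, with -2.93 (SE 0.94, adjusted p = 0.963). For Anxa9 the knockout value had the opposite sign, -2.14 and 0.56, with 2.64 (SE 0.91, adjusted p = 0.963).

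**Figure D5:**
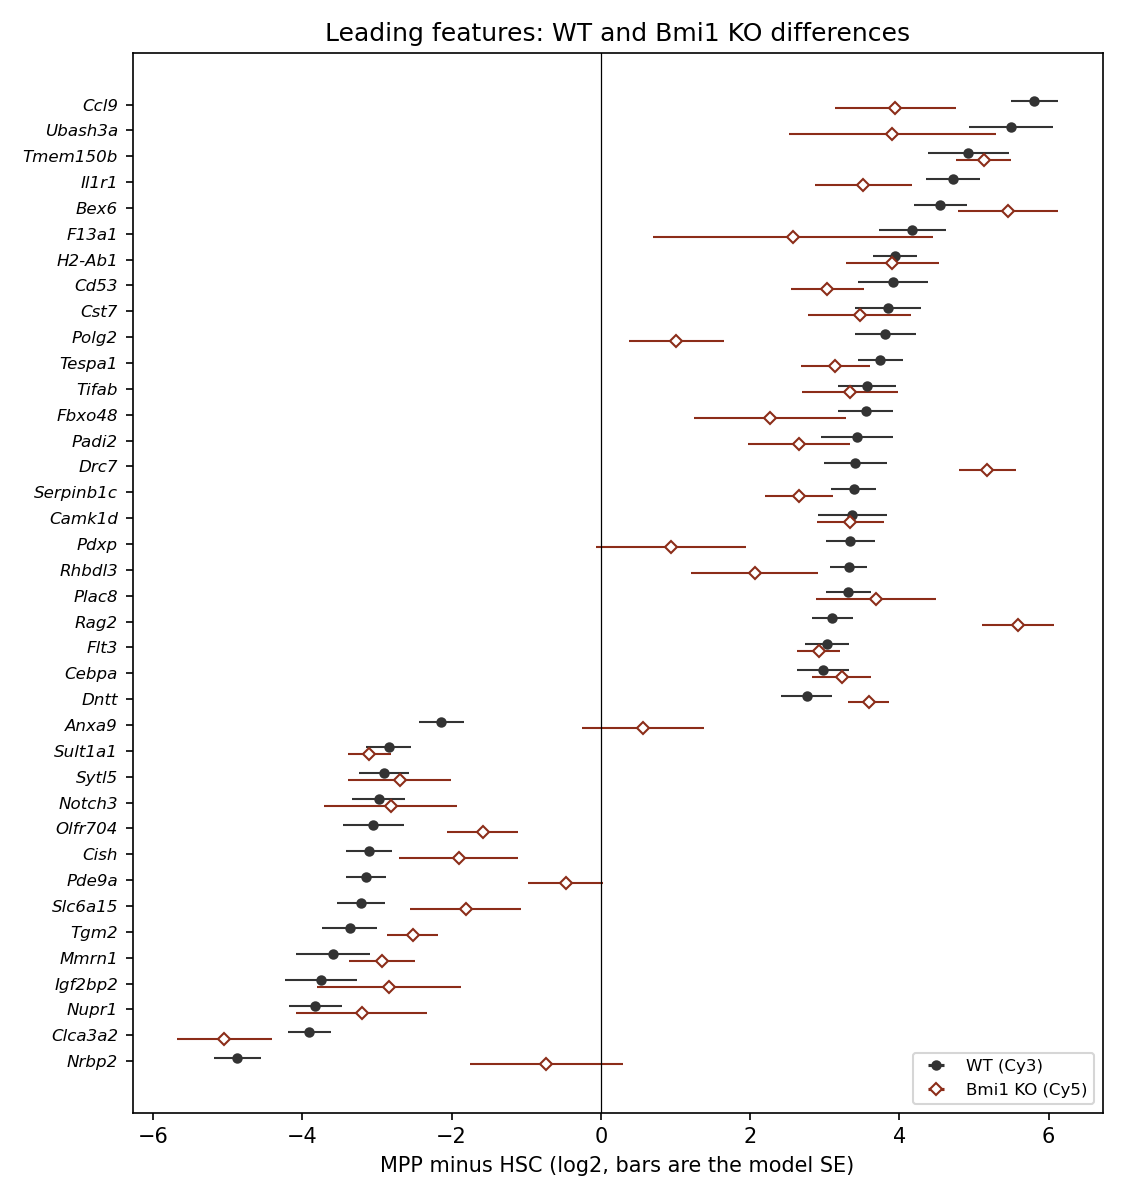
Log2 MPP minus HSC differences of 38 named features in wild-type samples (black circles, Cy3) and in Bmi1 KO samples (open red diamonds, Cy5), with bars of 1 model SE. Flt3 lies at 3.03 and 2.92; Anxa9 lies on opposite sides, at -2.14 and 0.56, and Nrbp2 lies at -4.87 and -0.73.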

How the data were processed

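RNA from 6 wild-type samples was measured in the Cy3 channel of two-colour Agilent arrays. The authors' deposited scanner files hold spot and local background intensities, Agilent's processed intensity per dye, its log10 ratio of red over green, and 0 or 1 marks for outlier spots and for spots well above background; per the file headers they come from Agilent Feature Extraction 10.7.3.1, whereas 8.5.1.1 is the version given by the submitters' processing notes. The deposited log10 ratio was used only in an alternative of the test between genotypes, which called 0 features. Array positions are of mm9, per the file headers. No genome of that build was used here, so exon and UTR annotations are not given.

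Green mean intensities were background-corrected (normexp, offset 50), control spots were removed, and log2 values were quantile-normalized between the 6 arrays. Outlier spots were left out and the spots of a probe averaged, giving 55681 probes. A probe was kept if it was well above background on all 3 arrays of a population and had a value on all 6 arrays; of the probes of a gene the brightest on average was used. Of the probes, 27235 (48.9%) were named through RefSeq accessions; the rest keep the array's name. The number of arrays limits the precision: 3 samples against 3 cannot give an exact permutation p below 0.1, so tests are those of limma 3.58.1 in R 4.3.3 (lmFit and eBayes, 2-sided, Benjamini-Hochberg over all features, threshold 0.05). Where no array of a population was well above background, a bound is given, against the higher of that array's lowest signal well above background and the probe's own.

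Named genes are the listed cell markers, at most 20 passing features per direction with the largest differences and no overlap, and at most 8 members of each of 31 gene lists with the smallest p; further list members named as partners or contrasts of these were chosen after their values were seen. A few genes are not reported here: they stay in the fit and in the counts over all features, and were left out of the markers, lists and named genes. The members and lists were chosen with earlier results of these data known. The labels do not say whether HSC and MPP samples of the same number are paired, and the main fit did not pair them. Deviations of same-numbered samples from their group means correlated at 0.15, 0.03 and 0.13 for numbers 1, 2 and 3. The highest correlations with a different number were 0.031, 0.040 and 0.040. Samples numbered 1 and 3 thus matched their own number best, and those numbered 2 did not. A fit with the replicate number as a block called 0 features in either direction. Alternatives changed the background correction, normalization, filter, probe rule, outlier marks, variance model, array weights, blocks and arrays used. On simulated data with 27301 features, 200 of them changed, the test recovered 0% at a 4-fold change and 92.5% at a 16-fold change, where 12 of 197 calls were false. The simulated noise was normal and independent between arrays, with the variance that limma fitted to each feature. It held no pattern of slide row or replicate number, so the share of false calls need not hold for the measured data.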

Additional observations from a re-analysis of the deposited data

How the results depend on the processing

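The counts of higher and lower features were 111 and 19 with plain background subtraction, 113 and 19 with Agilent's processed signal scaled at the 75th percentile, 108 and 13 with median scaling, 94 and 10 with cyclic loess, 45 and 8 with no filter on dim probes, 85 and 13 with only probes above background on all 6 arrays, 140 and 29 with the mean over probes, 134 and 24 with outlier spots kept, 147 and 29 with a variance trend and robust fit, and 141 and 28 with array weights. With the replicate block (HSC and MPP samples of the same number as pairs) limma called 0 and 0 (2039 and 2113 at an unadjusted p below 0.05), and with the slide row as a block, and within the first row, 0 and 0. Leaving out single arrays gave 0 to 127 higher and 0 to 19 lower. Leaving out both arrays numbered 2, chosen after seeing the data, gave 85 and 2, and both arrays numbered 3 gave 0 and 0. The test between genotypes called 0 throughout. The median of all features ran from -0.27 to 0.02.

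Features of the antigen receptor loci and probes named by position were not followed singly under the alternatives. Among the genes that were, none that had passed the test changed direction. The genes that did, none of which had passed, were: with the processed signal, Camp (-0.13) and Dtl (-0.53); with median scaling, Hlf (0.18) and Ddx3y (0.17), the latter also with cyclic loess (0.060) and array weights (0.18); with the slide row as a block, and within the first row, Pax5 (-0.19), S100a8 (-1.75), Alas2 (0.34), Uty (-0.16) and Xist (2.50). Without both arrays numbered 2 they were Alas2 (0.71), Xist (0.017) and Ddx3y (0.51), and without both numbered 3, Pax5 (-0.36), Hba-a1 (0.12) and Kdm5d (0.56). Over the arrays left out one at a time, the values of those that reversed ran as follows: S100a8 -1.50 to 2.79, Camp -0.084 to 0.42, Xist -2.23 to 1.97, Alas2 -0.59 to 0.37, Ddx3y -0.77 to 0.92, Hba-a1 -2.41 to 0.38, Kdm5d -1.03 to 0.51, Uty -0.060 to 0.99 and Pax5 -0.29 to 0.85. The causes were not tested. Of 168 single features under these settings, 3015 values kept their direction and side of the threshold, 423 lost the call, 14 gained one and 40 reversed. The 423 losses all fell on features that had passed, the only ones with a call to lose. The kept values include those of features that had not passed, so they do not measure how stable the calls were. Calls of named features were lost in from 5 of 20 alternatives (Ccl9) to 19 of 21 (Anxa9), with 17 of 20 for Mmrn1 and 16 of 21 for Padi2. The T and NK list median ran from -0.67 to 0.0062 over scalings. Depth in the form of signal over background limits the dim features, such as Rag2 in HSCs, to bounds.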

Other observations

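Some genes had their highest sample on the same array number in both populations. The Y-linked gene Ddx3y measured 7.97, 11.35 and 8.62 in the HSC samples and 8.26, 10.04 and 9.34 in the MPP samples, with array 2 the highest in both populations, the opposite order to Xist. Eif2s3y, also Y-linked, measured 7.92, 10.99 and 10.23 in the HSC samples and 7.68, 9.99 and 7.76 in the MPP samples. Ngp, a neutrophil granule protein, measured 6.50, 6.29 and 12.14 in the HSC samples and 6.76, 8.21 and 12.19 in the MPP samples, with array 3 the highest in both populations, as for S100a8. Klf1, an erythroid transcription factor, measured 11.14, 5.95 and 12.98 in the HSC samples and 10.17, 6.44 and 8.82 in the MPP samples, with array 2 the lowest in both populations and no shared highest array. None of these genes passed the test between populations, and the differences were -0.099, -1.24, 0.74 and -1.55.

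Among genes of innate cells, Siglecf, an eosinophil receptor, gave different values on its probes: the brighter one in MPPs measured 5.84, 6.01 and 6.02 in the HSC samples and 7.47, 9.93 and 8.94 in the MPP samples (difference 2.82, SE 0.61, adjusted p = 0.163), and the other differed by 0.19. The monocyte chemokine receptor Ccr2 measured 6.34, 6.34 and 6.46 in the HSC samples and 7.90, 7.02 and 8.19 in the MPP samples (difference 1.32, SE 0.36, adjusted p = 0.229), with every MPP sample above every HSC sample, while the macrophage receptor Adgre1 measured 7.43, 7.21 and 7.87 in the HSC samples and 6.87, 6.92 and 6.52 in the MPP samples (difference -0.73, SE 0.29, adjusted p = 0.305). The summed level of the monocyte and macrophage markers Adgre1, C1qa and Cd14 ran from 9.78 to 10.42 in HSC samples and from 9.29 to 9.76 in MPP samples. The stromal marker Cxcl12 measured 7.79, 7.82 and 7.93 in the HSC samples and 7.37, 7.33 and 7.36 in the MPP samples (difference -0.49, SE 0.23, adjusted p = 0.343).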
